A study of Homo sapiens with 6 samples.

Results

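Peaks of newly made DNA at the starts of protein-coding genes were described in control and ERCC6L2-/- U2OS cells. A peak was taken as a promoter peak when it shared at least 1 base with the 2 kb on either side of the annotated start of a coding gene on chromosomes 1 to 22 and X. Of 18840 peaks in both lists, 677 met this rule, 392 of 10285 in the control list and 285 of 8555 in the ERCC6L2-/- list. U2OS is a human osteosarcoma cell line, and ERCC6L2 encodes an ATPase of the SNF2 family. The knockout cells were made with CRISPR/Cas9, and which clonal line was sequenced is not given in the sources used here. Cells of both genotypes, 3 samples each, were given BrdU, a thymidine analogue, for 2 h, and fragments carrying it were pulled down with an antibody and sequenced. Each list merges the 3 samples of a genotype. The spread over replicates could therefore not be measured, read depth is unknown here, and the knockout cannot be told apart from other differences between the cell lines used. The Fisher's exact tests below compare lists of peaks rather than conditions. Ranges after a share are 95% Wilson intervals, which hold counting error alone.

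A promoter is the DNA around the start of a gene from which transcription is launched. Many human promoters are rich in GC and in the dinucleotide CpG, and replication in human cells often begins near active ones. Long runs of purines and tandem repeats can form DNA structures that slow a replication fork. A BrdU peak marks DNA that was enriched among labelled fragments and is not by itself an origin of replication.

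The sequences printed here are examples from high-scoring, wide promoter peaks and need not be typical of their classes. The printed windows are 180 bases from up to 2 of the highest-ranked single-copy peaks of each class (build hg38, plus strand). Shared peaks overlap a peak of the other list, and control-only or ERCC6L2-/--only peaks do not. Tandem copies of a repeat were found in only 33.7% of control-only and 25.9% of ERCC6L2-/--only promoter peaks. In the sequences at CD5, OSBPL2 and ASPHD2 the capitals mark a first stretch of 100, 36 and 23 bases. These are the lengths at which each peak best matched itself. Such a length need not be the smallest unit and can span several shorter copies, as at CD5. At SELENBP1 they mark each CpG. The highest-ranked ERCC6L2-/--only peak, inside the overlapping genes LTBR and SCNN1A, had no stretch of that length free of exons, and none is printed.
CD5, shared, chr11:61100531-61100710: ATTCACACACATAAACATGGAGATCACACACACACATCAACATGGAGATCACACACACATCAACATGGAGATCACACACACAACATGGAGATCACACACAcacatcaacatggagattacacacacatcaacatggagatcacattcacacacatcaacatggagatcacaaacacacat
OSBPL2, shared, chr20:62229748-62229927: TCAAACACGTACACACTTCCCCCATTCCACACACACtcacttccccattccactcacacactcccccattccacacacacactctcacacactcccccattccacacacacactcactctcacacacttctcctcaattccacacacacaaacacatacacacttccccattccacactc
ASPHD2, control-only, chr22:26427586-26427765: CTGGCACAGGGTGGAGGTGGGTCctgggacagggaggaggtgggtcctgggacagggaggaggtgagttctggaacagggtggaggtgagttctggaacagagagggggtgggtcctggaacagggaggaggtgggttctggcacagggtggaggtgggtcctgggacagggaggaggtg
SELENBP1, ERCC6L2-/--only, chr1:151373247-151373426: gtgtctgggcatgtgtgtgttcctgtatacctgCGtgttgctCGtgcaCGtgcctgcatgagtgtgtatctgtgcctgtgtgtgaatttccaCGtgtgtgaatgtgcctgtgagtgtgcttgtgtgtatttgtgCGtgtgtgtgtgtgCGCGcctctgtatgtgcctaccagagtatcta

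All peaks named by rank were at the score ceiling and were ordered by width, so their widths follow from the ranking. Of the 8 ranked shared peaks, tandem copies took from 26.8% (UBE2QL1) to 92.1% (SLC6A19), and the median over all shared control promoter peaks was 18.9%. The peak at CD5, which encodes a surface receptor of lymphocytes, was 2707 bases wide in the control list and 73.4% of it was tandem copies, and it ended 515 bases upstream of the start. At OSBPL2, for an oxysterol-binding protein, the peak was 1819 bases wide with 51.3% in tandem copies. At SLC6A19, an amino acid transporter of gut and kidney, it was 1654 bases wide with 92.1%, and at KLK4, a protease of tooth enamel, 1641 bases with 74.4%. Shared peaks were at the score ceiling in 81.2% (control) and 61.2% (ERCC6L2-/-) of cases.

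Among the ranked control-only peaks, ASPHD2 had a peak of 1202 bases with 88.1% in tandem copies. At CYP2A7, a cytochrome P450 gene, the peak of 929 bases held a purine run of 68 bases and overlapped coding sequence. No tandem copies were found in the peaks at ZNF808, COX4I1 (a subunit of cytochrome c oxidase) or ERICH4. The nearest ERCC6L2-/- peak to these lay from 22381 bases (ASPHD2) to 111133 bases (ERICH4) away. At the ceiling were 39.9% of control-only peaks.

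Of the 58 ERCC6L2-/--only peaks, 10 were at the ceiling (17.2%). Other peaks outside alpha-satellite were at it in 86.1% (shared control), 68.6% (shared ERCC6L2-/-), 47.3% (control-only) and 31.1% (ERCC6L2-/--only). The lower share of list-specific peaks at the ceiling was thus not particular to promoters, and it was not tested. The peak at LTBR, a receptor of the tumour necrosis factor family, and SCNN1A, a sodium channel subunit, was 1023 bases wide (chr12:6375056-6376078), 60.7% GC, and began 11 bases downstream of the LTBR start, over coding sequence. The next were SELENBP1 with 501 bases, MYO3A with 500, FABP5, a fatty acid carrier, with 487, CEP192, a centrosome protein, with 437, and TREML2, a receptor of myeloid cells, with 422. Among the 8 ranked peaks the nearest control peak lay from 1715 bases (OC90, ranked 8) to 146398 bases (FABP5) away. It lay 7361 bases away at TREML2 and 115706 bases away at CEP192. Over all ERCC6L2-/--only peaks the median width was 502.5 bases, against 547 for control-only and 640 for shared ERCC6L2-/- peaks. Of the 163 control-only peaks 1 had a peak of the other list within 1 kb, and of the 58 ERCC6L2-/--only peaks 0.

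Few promoter peaks lay on the start itself. Of 19970 annotated coding starts, 26 were covered by a control peak (0.130%, 0.0889 to 0.191%), whereas the point 750 bases downstream was covered at 101 (0.506%, 0.416 to 0.614%) and the point 500 bases upstream at 79 (0.396%, 0.318 to 0.493%). The ERCC6L2-/- list had the same shape, with 23 at the start (0.115%, 0.0768 to 0.173%), 76 at 750 bases downstream (0.381%, 0.304 to 0.476%) and 59 at 500 bases upstream (0.295%, 0.229 to 0.381%). In both lists the interval at the start lay below those at these points, which were the highest on each side. It overlapped the interval at 2500 bases upstream in the control list (0.181 to 0.319%) and in the ERCC6L2-/- list (0.0970 to 0.203%). In the ERCC6L2-/- list it also overlapped that at 250 bases upstream (0.151 to 0.278%). Just inside the 2 kb limit, between 1500 and 2000 bases from a start, lay 60 control and 39 ERCC6L2-/- peaks, and 52 and 32 lay between 2000 and 2500 bases.

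**Figure D1:**
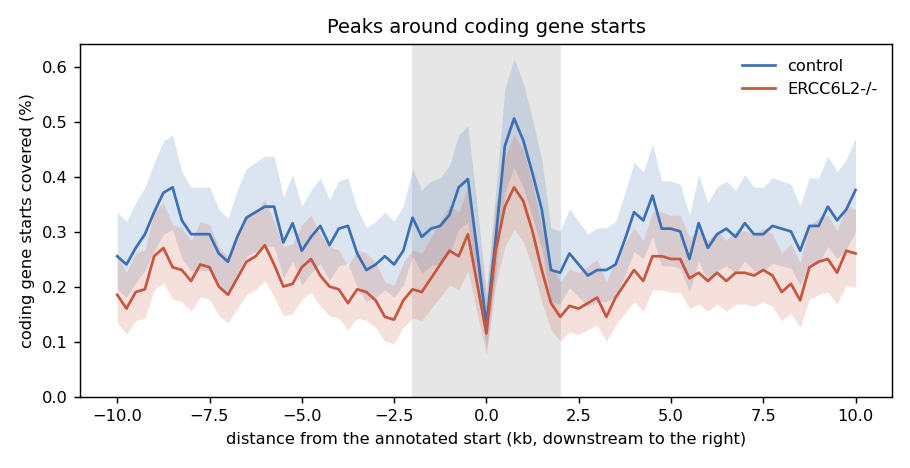
Share of coding gene starts (y axis, percent) covered by a peak at each distance from the start (x axis, kb, downstream to the right), for control (blue) and ERCC6L2-/- (red) peaks outside alpha-satellite. Bands are 95% Wilson intervals and the grey area is the window that defines a promoter peak. Both curves fall at the start, to 0.130% and 0.115%, and are highest on the downstream side.

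Genes with a promoter peak were a small part of all coding genes. Of 19962 coding gene names, 421 had a control peak (2.11%) and 307 an ERCC6L2-/- peak (1.54%), 483 in all (2.42%). Of these, 247 had a shared peak, 173 had control-only peaks alone (0.867%) and 62 had ERCC6L2-/--only peaks alone (0.311%). The promoter share of peaks was close in the lists: outside alpha-satellite, 4.31% of 9098 control peaks and 4.02% of 7090 ERCC6L2-/- peaks were promoter peaks (two-sided Fisher's exact test, p = 0.384, adjusted p = 0.713 over 13 tests).

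Of the 392 control promoter peaks, 163 were control-only (41.6%, 36.8 to 46.5%), against 34.3% of the 8706 other control peaks outside alpha-satellite (33.3 to 35.3%, odds ratio 1.37, Fisher's exact p = 0.00334, adjusted p = 0.0157). Over all 9098 control peaks outside alpha-satellite the background was 34.6%. Of the 285 ERCC6L2-/- promoter peaks, 58 were ERCC6L2-/--only (20.4%, 16.1 to 25.4%), against 15.7% of the 6805 others (14.8 to 16.6%, odds ratio 1.37, Fisher's exact p = 0.0386, adjusted p = 0.100), with a background of 15.9%. Which of these calls passed depended on how alpha-satellite, the repeat of human centromeres, was delimited. Under a wider definition, tried after the classes of peaks had been seen, the control-only difference no longer passed (36.3% of the others, exact test, adjusted p = 0.0945) and the ERCC6L2-/--only difference did (14.7% of the others, adjusted p = 0.0465). With alpha-satellite kept among the other peaks, 19.4% of these were ERCC6L2-/--only (exact test, adjusted p = 0.842). Of 15 alternatives, the control-only difference passed under 4 and the ERCC6L2-/--only difference under 1. Among all list-specific peaks, 26.2% of the 221 at promoters and 26.4% of the 4050 elsewhere were from the ERCC6L2-/- list (Fisher's exact test, p = 1).

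**Figure D2:**
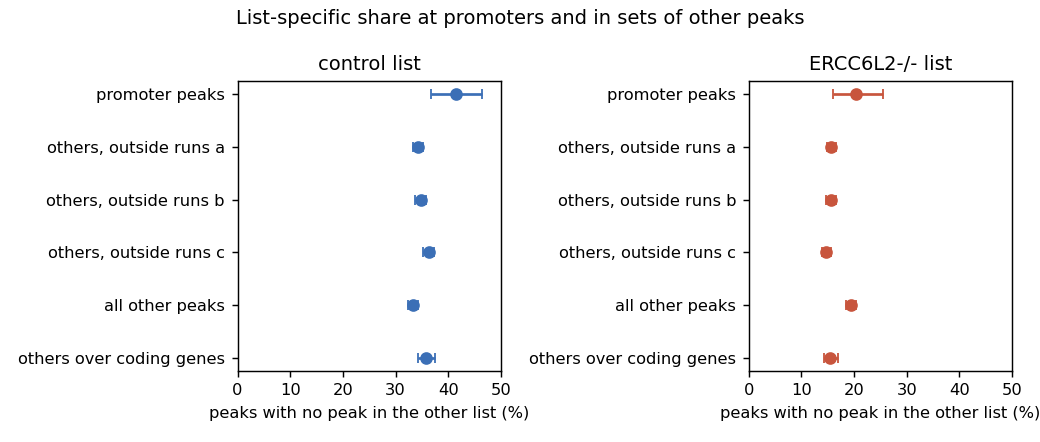
Share of peaks with no overlapping peak in the other list (x axis, percent), for promoter peaks and for sets of other peaks, for control (left) and ERCC6L2-/- (right). Points are shares and bars are 95% Wilson intervals; runs a, b and c are the definitions of alpha-satellite, a being the one used. Promoter peaks stand at 41.6% (control) and 20.4% (ERCC6L2-/-), and other ERCC6L2-/- peaks range from 14.7 to 19.4% with the set chosen.

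ERCC6L2-/--only promoter peaks were more often rich in CpG than the other classes. A peak was called CpG-rich at a GC content of at least 50% and at least 0.6 of the CpG that its base composition would give. This held for 19 of 58 ERCC6L2-/--only peaks (32.8%, 22.1 to 45.6%), 33 of 227 shared peaks of the same list (14.5%, 10.5 to 19.7%, adjusted p = 0.0157 by Fisher's exact test) and 21 of 163 control-only peaks (12.9%, 8.58 to 18.9%, adjusted p = 0.0157). Shared control peaks had 25 of 229 (10.9%), and control-only peaks were not shown to differ from them (exact test, adjusted p = 0.915). Other peaks outside alpha-satellite were CpG-rich in 8.15% (ERCC6L2-/--only), 8.19% (shared ERCC6L2-/-), 2.85% (control-only) and 7.55% (shared control). The gap between the list-specific classes was thus not particular to promoters, and it was not tested among the other peaks. Of the 19, 5 lay in sequence with more than 1 copy in the reference, among them those at RGPD3, RGPD4 and RGPD8, near-identical genes of chromosome 2 whose reads the aligner can place at the wrong copy. Among peaks of single-copy sequence neither difference passed (exact test, 14.2 points against shared, adjusted p = 0.109, and 16.6 points against control-only, adjusted p = 0.0837), nor did either among peaks with 45 to 55% GC (adjusted p = 0.956 for both).

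The 14 others included peaks at genes of varied roles. The peak at MYO3A, which encodes a myosin of hair cells, was at the score ceiling, 500 bases wide and 61.2% GC. The peak within 2 kb of the starts of XPO5, a nuclear export receptor for microRNA precursors, and POLH, the polymerase that copies past ultraviolet damage, was 704 bases wide and 66.2% GC, and lay inside XPO5, 25 bases downstream of its start, over coding sequence. DBF4B, a regulator of the CDC7 kinase that fires origins, had a peak of 504 bases at 59.5% GC, 175 bases from its start. The ranking named MYO3A, whereas XPO5, POLH and DBF4B were picked after their values were seen. The start itself lay in the peak for NKAIN3 alone among the 19.

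Purine tracts, runs of at least 30 purines or pyrimidines, were in 50 of 163 control-only promoter peaks (30.7%, 24.1 to 38.1%), 48 of 229 shared control peaks (21.0%, 16.2 to 26.7%) and 10 of 58 ERCC6L2-/--only peaks (17.2%, 9.64 to 28.9%). Neither difference passed the adjusted threshold (adjusted p = 0.100 and 0.127 by Fisher's exact test). Both passed when the window was widened to 5 kb, when the starts of all transcripts were used, and without chromosome 19 (12.8 points, adjusted p = 0.0391, and 19.3 points, adjusted p = 0.0285, exact tests). Other peaks outside alpha-satellite held such tracts in 45.8% (control-only), 21.7% (shared control) and 24.0% (ERCC6L2-/--only). The higher control-only share was thus not particular to promoters, and it was not tested among the other peaks. The start was covered by 6.13% of control-only, 5.17% of ERCC6L2-/--only, 6.55% of shared control and 8.37% of shared ERCC6L2-/- promoter peaks, and no pair of classes compared passed (adjusted p from 0.915 to 1).

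**Figure D3:**
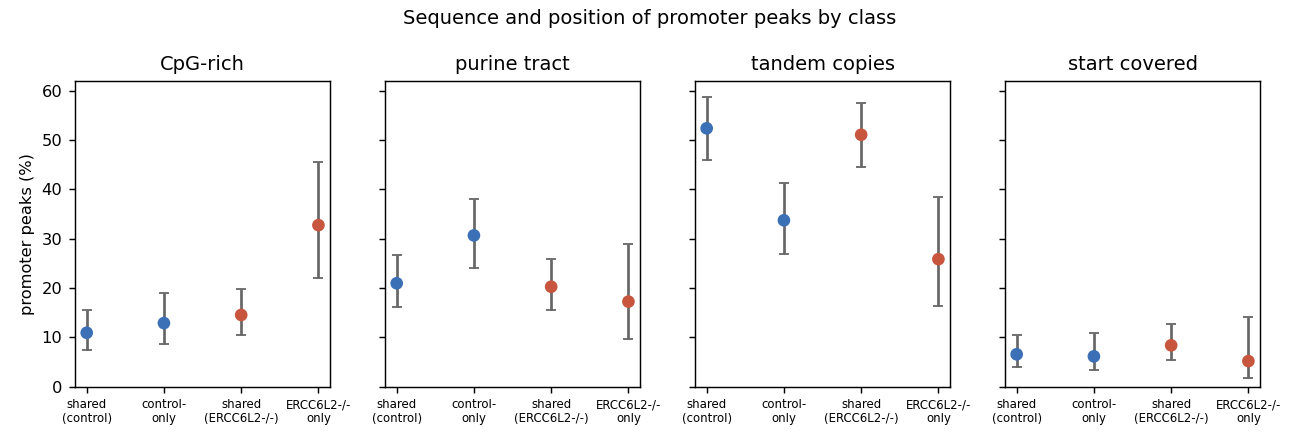
Share of promoter peaks (y axis, percent) that are CpG-rich, hold a purine tract, hold tandem copies or cover the start, by class and list. Points are shares and bars are 95% Wilson intervals. The ERCC6L2-/--only class stands at 32.8% for CpG, and tandem copies are in 52.4% and 51.1% of shared against 33.7% and 25.9% of list-specific peaks. Other peaks, not drawn, also held tandem copies less often when list-specific.

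Promoter peaks held tandem copies less often than other peaks. Tandem copies were found in 175 of 392 control promoter peaks (44.6%, 39.8 to 49.6%) and 70.1% of the other control peaks outside alpha-satellite, and in 131 of 285 ERCC6L2-/- promoter peaks (46.0%, 40.3 to 51.8%) and 71.6% of the others. The adjusted p-values of these Fisher's exact tests, which were chosen after the values were seen, were 7.79e-24 and 1.72e-18 over 6 such tests. Among the other peaks, shared ones held tandem copies in 76.2% (control) and 76.1% (ERCC6L2-/-), and list-specific ones in 58.2% and 47.9%. The lower share in list-specific promoter peaks was thus not particular to promoters, and it was not tested. A pattern of 4 runs of guanines that can fold into a G-quadruplex was in 38.8% of control promoter peaks against 26.8% of the others (exact test, adjusted p = 6.42e-07) and in 35.4% of ERCC6L2-/- promoter peaks against 1567 of 6805 others (adjusted p = 4.28e-06).

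Chromosome 19, the most gene-dense human chromosome, held 91 of 392 control promoter peaks (23.2%, 19.3 to 27.6%) and 61 of 285 ERCC6L2-/- promoter peaks (21.4%, 17.0 to 26.5%). It held 5.56% and 6.01% of the other peaks outside alpha-satellite (exact tests, adjusted p = 1.74e-28 and 6.95e-17, from the same 6 tests) and 7.39% of coding genes. Promoter peaks lie near coding genes by definition, so these tests partly restate the gene density of the chromosome. A promoter peak was found for 109 of its 1476 coding genes (7.38%, against 2.42% of all coding genes). On chromosome 19, 6 of the 61 ERCC6L2-/- promoter peaks were ERCC6L2-/--only (9.84%), against 82 of 409 other peaks there, the opposite direction to the whole list (exact test, adjusted p = 0.498).

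**Figure D4:**
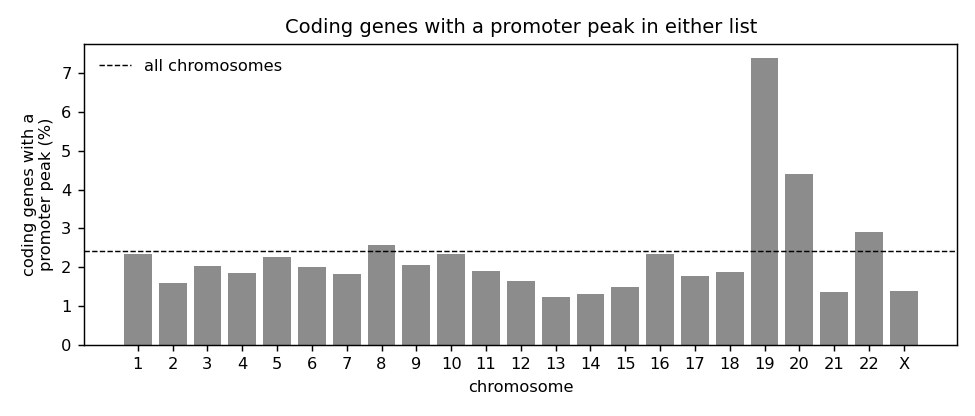
Share of coding genes with a promoter peak in either list (y axis, percent) on each chromosome (x axis). Bars start at 0 and the dashed line is the share over all chromosomes, 2.42%. Chromosome 19 stands at 7.38% and chromosome 20, the next, at 4.41%.

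Zinc finger genes, taken here by the symbol ZNF, made up part of this group. Many of them encode DNA-binding repressors, and 249 of the 515 lie on chromosome 19, often in clusters. Of 249 ZNF genes on the chromosome, 18 had a promoter peak (7.23%, 4.62 to 11.1%), and of its 1227 other coding genes 91 had one (7.42%, 6.08 to 9.02%). Away from chromosome 19 the shares were 6 of 266 ZNF genes (2.26%) and 368 of 18220 others (2.02%). Of the 24 ZNF genes with a peak, 13 were shared (2.52% of 515, against 1.24% of all coding genes) and 11 were control-only (2.14% against 0.867%). The ERCC6L2-/--only count was 0, where the interval reaches 0.740% of 515 genes and the background was 0.311%. On chromosome 19 alone, the 249 ZNF genes had 9 shared, 9 control-only and 0 ERCC6L2-/--only, and the 1227 others had 52, 32 and 7.

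A run of 9 such peaks between ZNF432 and ZNF665 on chromosome 19 had alike sequence, with a median identity of 76.0% over a median of 442 aligned bases. Of these, 6 were control-only and 3 were shared, where 41.6% of all control promoter peaks were control-only. A larger group, of 13 peaks on 10 chromosomes with a median identity of 71.2%, had 10 shared, 1 control-only and 2 ERCC6L2-/--only peaks. The control-only peaks at ZNF808, ZNF600, ZNF415, ZNF347 and ZNF665 lay 786, 851, 950, 1030 and 751 bases from their starts. The shared peaks at ZNF616 and ZNF610 lay 775 and 749 bases from theirs. Over all 9 the distance to the nearest start ran from 749 to 1030 bases, and the control widths from 457 to 782 bases. Both groups were noticed after the data were seen, and no test was made on them.

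Other chains of promoter peaks were short. The longest had 5 shared peaks over the TAF11L genes of chromosome 5, copies of a gene for a transcription factor subunit. The sequences of these peaks had a median identity of 99.7%, so that reads of 1 copy can be counted at another. On chromosome 10, 3 shared peaks lay at TUBGCP2, CALY and PRAP1. Among control-only peaks the longest chain had 3 peaks, at ZNF415, ZNF347 and ZNF665, and among ERCC6L2-/--only peaks 2, at TINCR and RPL36.

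Genes with 2 control-only peaks at their start were CDC25B, CENPB and RTN4RL2. CDC25B, a phosphatase that drives entry into mitosis, and CENPB, which encodes the protein that binds the CENP-B box of alpha-satellite, are neighbours on chromosome 20 and share both peaks. These peaks were 437 and 477 bases wide, both at the ceiling, with purine runs of 63 and 165 bases, and the nearest ERCC6L2-/- peak was over 300 kb away (328645 and 324910 bases). RTN4RL2 had peaks of 457 and 587 bases on chromosome 11. No gene had 2 ERCC6L2-/--only peaks.

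Genes of replication and repair had promoter peaks at counts near the background. Among 67 genes of the replication machinery, 1 had one (1.49%, against 2.42% of all coding genes), a control-only peak at RPA2, a subunit of the protein that coats single-stranded DNA. This peak lay 1796 bases upstream of the start, was 578 bases wide and held a purine run of 200 bases. DBF4B and POLH, whose ERCC6L2-/--only peaks are given above, were in none of the gene lists used and are not counted here. Among 52 centromere and kinetochore genes, CENPB alone had one, and among 32 SNF2-family ATPases CHD9 alone, with a shared peak that covers the start of its neighbour CHD9NB. None of 62 genes of break repair and fork protection and none of 23 bone and osteosarcoma genes had one. Among 74 histone genes, 65 protocadherins and 152 keratin genes the count was also 0. Collagens had 3 of 44 (6.82%, 2.35 to 18.2%), all shared, solute carriers 7 of 373 (1.88%), TMEM genes 7 of 238 (2.94%), olfactory receptors 3 of 416 (0.721%), HOX genes 1 of 39 and ribosomal protein genes 2 of 84. Segmentally duplicated families had 9 of 179 (5.03%, 2.67 to 9.28%), of which 5 were ERCC6L2-/--only (2.79%, against 0.311% of all coding genes), and reads of these near-identical copies can be placed at the wrong one. ERCC6L2 itself had no promoter peak in either list, the nearest peaks lying 155236 and 155201 bases from its start, which checks nothing about the knockout.

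The promoters of these genes in RefSeq (GRCh38.p14, 250 bases before to 50 after the start) could be matched for 15316 coding genes, of which 64.2% were CpG-rich. Among the matched genes with a shared peak, 86 of 174 were (49.4%), with control-only peaks 74 of 126 (58.7%) and with ERCC6L2-/--only peaks 28 of 43 (65.1%).

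Shared promoter peaks were somewhat narrower in the ERCC6L2-/- list. Of 229 pairs that matched one to one, the ERCC6L2-/- peak was the narrower in 149 (65.1%, 58.7 to 70.9%), with medians of 697 and 641 bases and a median ratio of 0.967. Other shared peaks outside alpha-satellite had 69.7% of 5630 pairs narrower (68.4 to 70.8%) and a median ratio of 0.961. The extremes were TUBGCP2, 1866 bases in control and 629 in ERCC6L2-/-, and TRIM44, 393 and 746 bases. In 50 pairs the control peak alone was at the score ceiling and in 4 the ERCC6L2-/- peak alone. The same held elsewhere, with 1110 and 116 such pairs among the other shared peaks.

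**Figure D5:**
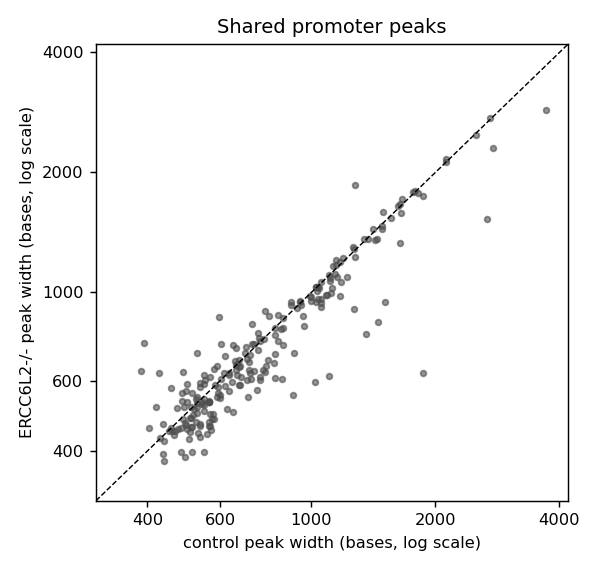
Width of each shared promoter peak in the control list (x axis, bases, log scale) and in the ERCC6L2-/- list (y axis, bases, log scale), for 229 pairs. The dashed line marks equal width. More points lie below the line, 149 of 229, and most lie close to it.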

How the data were processed

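Nascent DNA of 3 control and 3 ERCC6L2-/- samples was used as 2 consensus peak lists. The authors trimmed and aligned reads to hg38 (patch 12), removed duplicates, called peaks in each sample with MACS2 and merged the replicates with MSPC. They also used BrdU-labelled E. coli DNA as a spike control for the pull-down. The deposited score of a merged peak is a −log10 p-value with a ceiling, written as infinite. It was used to rank or filter peaks and to count those at the ceiling, and these counts were not tested between lists. The deposited unique lists equalled the consensus peaks without overlap. Depth and multi-mapping rules are not given in the sources used here.

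Sequence was read from hg38 (samtools 1.23.1, pysam 0.24.0) and starts from GENCODE release 44. Fisher's exact tests, two-sided and run in scipy 1.17.1, were adjusted by Benjamini-Hochberg over 13 tests, and 6 tests chosen after seeing the values were adjusted apart. Tandem copies were sought at periods of 2 to 150 bases, with at least 75% identity over 100 bases. Sequence copies were the median count of 50-base words. Similar peaks were sought with blastn 2.17.0 among those without tandem copies, at an identity of at least 70%. Methods were tested on simulated data.

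Alpha-satellite was taken as 1000-base windows in which 50% or more of the bases equalled those 171 bases on, joined over 10 kb, in runs of at least 10 kb (56.36 Mb, definition a). This was the first of 3 definitions tried. Definition b also took shifts of up to 2 bases (64.19 Mb), and c lowered the identity to 45% and joined over 50 kb (79.83 Mb). Definitions b and c were made after seeing which classes of peaks lay outside the runs, and the tests were first computed under c. Definition a, the first written, was then made the main one, because it had not been adjusted to the peaks. All are reported.

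The members, lists and tests were chosen with earlier results of these data known. Named genes were, in each class, the 8 highest-scoring promoter peaks with ties broken by width and a median of 1 copy, genes with 2 or more list-specific peaks, the 5 longest chains within 100 kb, ERCC6L2, and members of the gene lists with a list-specific peak. Genes outside this rule are marked in the text or are members of the counted groups. Sequences were printed for up to 2 ranked peaks of a class, with those on chromosome 8 passed over. Some results withheld for evaluation are not reported here.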

Additional observations from a re-analysis of the deposited data

How the results depend on the processing

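Values are differences in percentage points between the first and the second set of peaks. No paired analysis was possible because each list merges its 3 replicates, and for the same reason no replicate could be left out. No result passed under every alternative. For the control-only share at promoters the difference was 5.30 with a 1 kb window, 1.99 with all transcript starts, 5.95 with reciprocal 50% overlap, 3.65 among higher-scoring peaks, 6.80 among single-copy peaks, 5.76 with neighbours within 10 kb counted once, 6.85 at widths of 400 to 1000 bases, 3.27 at 45 to 55% GC, 5.73 against other peaks over coding genes, 5.25 under alpha-satellite definition c and 6.92 on chromosome 19 alone, and it did not pass in any of these. It ranged from 6.33 to 7.98 with each of 23 chromosomes left out, passing in 20. For the ERCC6L2-/--only share the difference was 5.66 under definition c, where it passed, -1.07 among higher-scoring peaks and -10.2 on chromosome 19 alone, and 3.34 to 7.80 with a chromosome left out, passing in 2 (without chromosome 3 or 19). The ERCC6L2-/- share of list-specific peaks, -0.13, turned to 2.68 (1 kb), 2.47 (all transcript starts), 0.22 (gap of up to 1 kb counted as shared), 1.76 (single-copy), 0.73 (neighbours once), 2.95 (widths), 0.83 (GC), 1.51 (coding genes), 0.47 (definition b) and 3.03 (definition c), with -1.72 to 3.17 over chromosomes left out. The promoter share of peaks, 0.29, was -0.0074 at the limited widths and 0.15 to 0.38 over chromosomes left out.

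CpG-rich peaks, ERCC6L2-/--only against shared, gave 9.15 (5 kb window), 24.9 (higher-scoring), 14.2 (single-copy), 16.3 (widths), 5.90 (GC) and 10.4 (central 300 bases), none passing, and 11.1 to 20.6 over chromosomes left out, not passing without chromosome 1 or 2. Control-only against ERCC6L2-/--only gave -29.2 (higher-scoring), -16.6 (single-copy) and -8.23 (GC), none passing, and -22.0 to -13.8 over chromosomes left out, not passing without chromosome 1 or 2. Control-only against shared gave -2.44 (5 kb), -2.59 (all transcript starts), -1.71 (GC) and -4.15 (central bases), and 0.88 to 3.02 over chromosomes left out. Purine tracts, control-only against shared, passed at 14.4 (5 kb) and 13.5 (all transcript starts), and ranged from 6.93 to 12.8 over chromosomes left out. Against ERCC6L2-/--only they passed at 15.8 and 18.6, and ranged from 8.95 to 19.3. ERCC6L2-/--only against shared turned to 5.00 (GC) and 3.02 (tracts of at least 20), and ranged from -6.13 to -1.04. Starts covered, control-only against shared, turned to 0.11 (1 kb), 0.55 (single-copy) and 0.72 (GC), with -1.85 to 0.49 over chromosomes left out. ERCC6L2-/--only against shared turned to 0.72 (all transcript starts) and 1.09 (GC), with -4.37 to -2.44. Control-only against ERCC6L2-/--only turned to -1.56 (all transcript starts), -0.043 (widths) and -0.55 (GC), with -0.63 to 2.45.

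The 483 coding genes became 918 (5 kb), 1085 (all transcript starts) and 282 (higher-scoring peaks). The 3 genes of the 5 fixed lists became 0 (1 kb), 6 (5 kb) and 9 (all transcript starts). The number of peaks limits each share, and the causes of these changes were not tested.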
